A study of Equus caballus with 32 samples.

Results

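The samples described here are the ends of an interferon score in the blood of 32 Welsh Pony mares. Each mare gave 1 sample of venous whole blood 30 days after her foal was weaned, collected into tubes with an RNA-stabilising reagent and measured on 1 single-colour Agilent array. According to the labels the weaning was brutal in 16 mares and progressive in 16. All were adult females of 1 breed, with no sample taken without weaning, and their ages and health are not given in the sources used here. The score of an array was the mean z value, over the 32 arrays, of IFI44, IFIT3, ISG15, MX1 and RSAD2. Arrays were selected on the measured levels of these 5 genes alone: the 8 with the highest score are called interferon-high and the 8 with the lowest interferon-low, whatever the weaning type. Thus 16 of 32 arrays were compared and 16 lay between. These ends are cuts through a measured range and not groups of the study. A test between them says how closely another gene followed the 5 score genes over these mares, not what any treatment did.

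Interferons are cytokines that cells release when they sense viral nucleic acid, and blood leukocytes carry receptors for them. Type I interferons bind the receptor chains IFNAR1 and IFNAR2, the kinases JAK1 and TYK2 phosphorylate STAT proteins such as STAT2, and these join IRF9 in a complex that switches on interferon-stimulated genes. Interferon gamma uses its own receptor and is known for driving guanylate-binding proteins, CXCL10 and antigen presentation. The products of interferon-stimulated genes bind viral RNA, tag proteins with ISG15, degrade RNA or raise the sensors that detect infection. In whole blood, fewer cells of a type and less RNA per cell cannot be told apart.

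Levels are log2 signals relative to the 75th percentile of their array, so 0 is the level of that percentile, and a level is compared only with the same gene on other arrays. Arrays differed in brightness, with a 75th percentile between 339.5 and 646 intensity units and between 53.0 and 66.01% of spots well above background. Of the tested markers, which had already passed a filter on signal, 16 of 17 neutrophil and 16 of 17 T cell markers stood well above background on all 16 end arrays. Over all genes tested outside the score this held for 7857 of 9401. The arrays lay on 4 slides of 8, each with 2 rows. In row 1 the share of spots well above background was 59.8 to 66.01%, and in row 2 it was 53.0 to 59.6%. Nothing in the labels says that the mares gave more than 1 sample, so each array stands for 1 mare.

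The probes of the genes that carry the results are shown by 30 of their 60 bases, as the array files give them. The first 5 lines are the score gene with the widest difference between the ends, the score gene that did not follow the others, and the genes outside the score with the smallest p or the largest difference among the interferon-stimulated genes. The MX1 pair is shown because its probes share the 20 bases in capitals and so are not separate measurements. The OASL pair is shown because its probes share no stretch of 15 bases and gave different results.
ISG15, bases 1 to 30: acctgggggaatacgagcttacagccgggt
RSAD2, bases 1 to 30: aaggagccttccaagtccatcctggatgtt
IRF7, bases 1 to 30: tacaacgacctcgagcatttccttgaccac
HERC5, bases 1 to 30: aaagatcccataagagcacaaacatgtttt
IFIT1, bases 1 to 30: acagaaaccatgagaatccttcagttcatt
MX1 probe A, bases 31 to 60: gttttaggcgTGTGAGTGCTGCTTGTGTGA
MX1 probe B, bases 1 to 30: TGTGAGTGCTGCTTGTGTGAatgcttgtag
OASL brighter probe, bases 1 to 30: tttactgcccatgggtcctgtccccatgct
OASL dimmer probe, bases 1 to 30: aaataactcacatacctatgccttataaac

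The score fell in uneven steps from the highest array to the lowest, for instance from -0.875 for brutal 5 to -1.198 for progressive 14. In the interferon-high arrays it ran from 0.593 to 1.43 with a median of 0.959, and in the interferon-low arrays from -1.198 to -0.526 with a median of -0.720. At the upper limit the last array inside was brutal 11 at 0.593 and the first outside brutal 2 at 0.530. At the lower limit the last array inside was progressive 1 at -0.526 and the first outside progressive 10 at -0.524, so the lower limit divides arrays of nearly the same score. The interferon-high arrays were brutal 3, 11 and 14 and progressive 5, 7, 8, 11 and 12. The interferon-low arrays were brutal 1, 4, 5 and 10 and progressive 1, 2, 4 and 14.

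**Figure D1:**
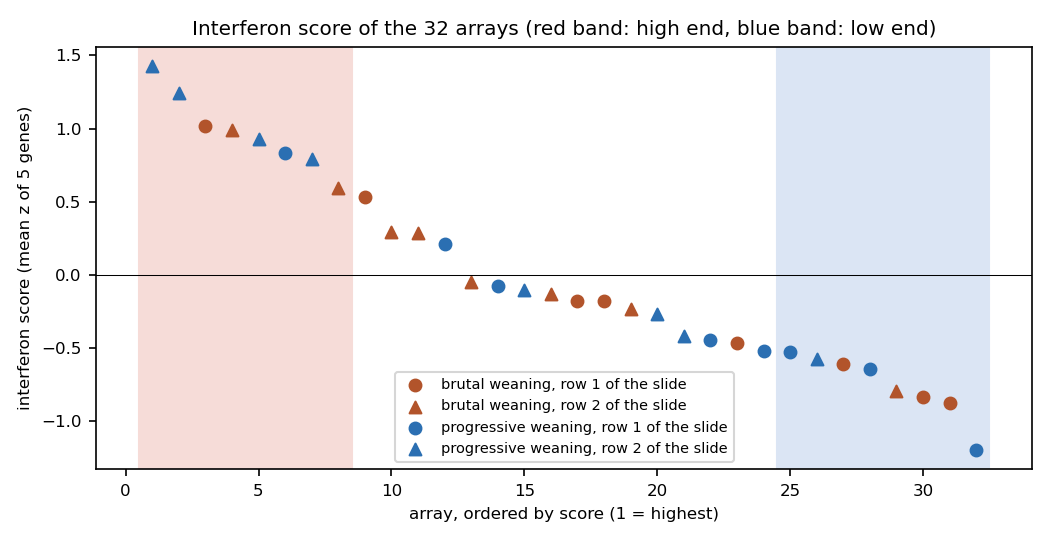
Interferon score (mean z value of 5 genes) of the 32 arrays in order of score, coloured by weaning type, with the row of the array on its slide as the symbol. The 8 interferon-high arrays lie from 0.593 to 1.43 and the 8 interferon-low arrays from -1.198 to -0.526, and both weaning types are found at both ends.

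The weaning type, which the score did not use, was spread over both ends. Of the interferon-high arrays 3 came from brutal and 5 from progressive weaning, and of the interferon-low arrays 4 and 4 (two-sided Fisher's exact test, p = 1). Over all 32 mares the mean score was -0.040 ± 0.61 (SD, n = 16) for brutal weaning and 0.040 ± 0.77 (SD, n = 16) for progressive weaning. The difference of 0.081 was smaller than the SD within either type. A two-sided permutation test of the difference in mean score, with 100000 relabellings, gave p = 0.747. The sign of the difference was not fixed, as it was -0.054 when IFI44 was left out of the score and -0.012 without the array with the highest score.

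Position on the slides was less even. The interferon-high arrays numbered 1, 3, 3 and 1 on slides 1 to 4, and the interferon-low arrays 5, 1, 1 and 1. In row 1 lay 2 interferon-high and 6 interferon-low arrays, and in row 2 lay 6 and 2 (two-sided Fisher's exact test, p = 0.132). The share of spots well above background had a median of 58.02% in the interferon-high and 61.1% in the interferon-low arrays. Row alone, tested over the 32 arrays with limma, gave 0 genes past an adjusted p of 0.05 and 622 at an unadjusted p under 0.05. The differences below are therefore also given within rows and slides.

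Of the 5 score genes, which chose the arrays and are described without a test, 4 moved together and RSAD2 did not. ISG15, a ubiquitin-like protein that is attached to other proteins, had a lowest, median and highest level of 5.88, 6.45 and 7.55 in the interferon-high arrays and 4.35, 4.60 and 5.20 in the interferon-low arrays. Its ends did not overlap, and their means of 6.61 ± 0.60 and 4.69 ± 0.35 (SD, n = 8 each) lay 1.92 apart, or 3.79-fold. IFIT3, an RNA-binding partner of IFIT1, was at 3.34, 3.79 and 4.31 against 2.07, 2.47 and 2.96, without overlap. MX1, a GTPase that blocks viral replication, was at 2.07, 3.01 and 4.26 against 0.69, 1.40 and 2.08, so that the lowest interferon-high array met the highest interferon-low array. Its 2 probes, which share bases, gave differences of 1.61 and 1.67. IFI44, an interferon-induced cytoplasmic protein, was at 0.86, 1.76 and 2.43 against -0.53, 0.41 and 1.71, with 4 of 8 interferon-high arrays above every interferon-low array.

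RSAD2 (viperin, an enzyme that makes a chain-terminating nucleotide) was at -2.30, -1.83 and -1.39 in the interferon-high and at -2.61, -1.93 and -1.57 in the interferon-low arrays. The ranges overlapped almost wholly and the means differed by 0.14, although RSAD2 was part of the score. Its 1 probe stood well above background on all 16 arrays. CMPK2, the neighbouring gene whose kinase feeds the same reaction, was examined after its values were seen and differed by 0.27 (SE 0.19). When the ends were drawn from the other 4 score genes, 7 of the 8 interferon-high and 6 of the 8 interferon-low arrays were the same ones. Because the score genes chose the arrays, the differences of ISG15, IFIT3, MX1 and IFI44 between the ends follow from the choice.

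**Figure D2:**
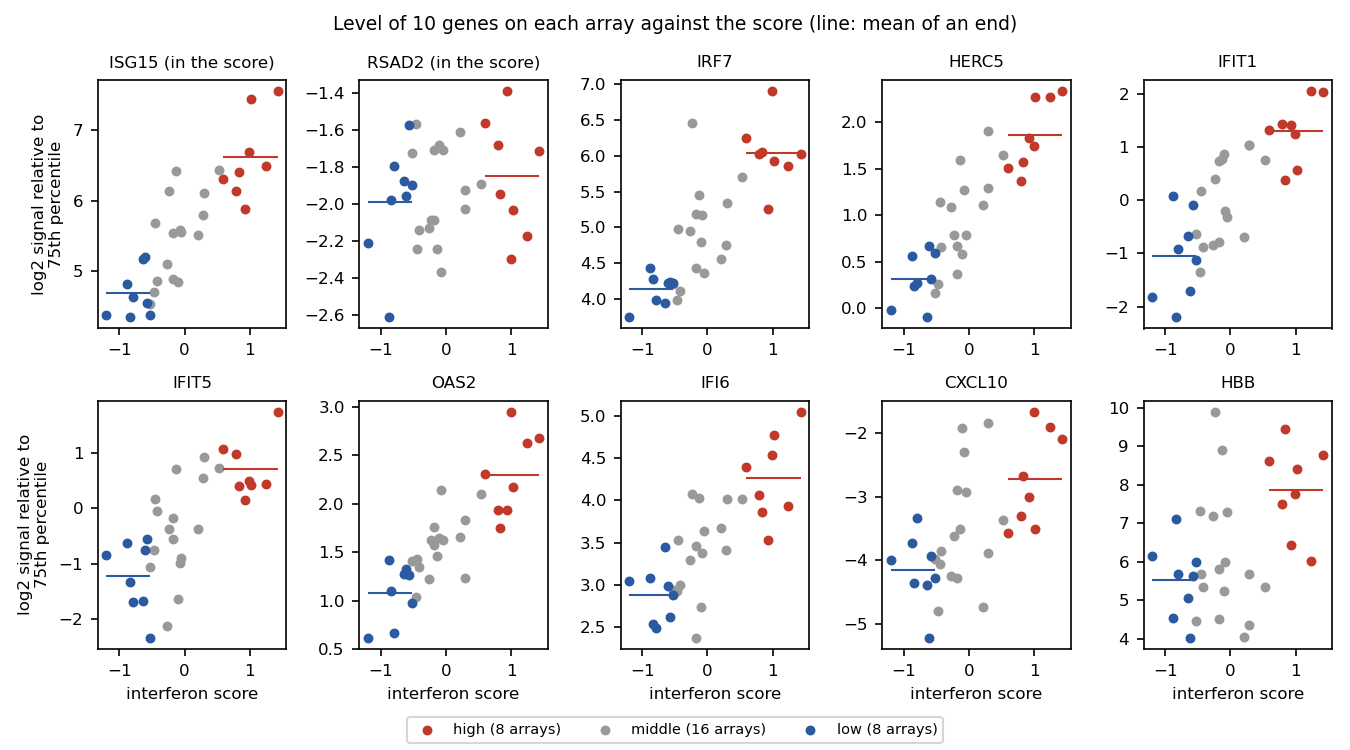
Log2 signal relative to the array's 75th percentile (vertical axes) against the interferon score (horizontal axes) for 10 genes on 32 arrays, red for the 8 interferon-high, blue for the 8 interferon-low and grey for the 16 arrays between, with a line at the mean of each end. IRF7, HERC5, IFIT1, IFIT5, OAS2 and IFI6 separate the ends without overlap, RSAD2 does not follow the score it is part of, and HBB is spread widely between the ends.

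Outside the score, 12 of 9401 genes were higher in the interferon-high arrays and 0 were lower past an adjusted p of 0.05, which is 0.128% of the genes tested (limma, Benjamini-Hochberg adjustment). At an unadjusted p under 0.05 there were 262 genes, or 2.79%. Of all genes, 54.7% were higher by any amount, and the median difference was 0.014 on the log2 scale. Lists of interferon-related genes held 10 of the 12: IFIT1, IFIT5, IFI6, OAS2, SAMD9L, XAF1, HERC5, RIGI, IRF7 and TNFSF10. The other two were SPATS2L and CCRL2. No tested probe of the 12 genes shared a stretch of 15 bases with a probe of a score gene. The ends did not overlap for 8 genes, all higher (0.0851%): IRF7, IFI6, OAS2, HERC5, TNFSF10, IFIT1, IFIT5 and XAF1.

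The clearest member was IRF7, the transcription factor that drives type I interferon genes and is itself induced by interferon. Its lowest, median and highest levels were 5.26, 6.03 and 6.90 in the interferon-high and 3.75, 4.23 and 4.43 in the interferon-low arrays. Every interferon-high array lay above every interferon-low array. The means differed by 1.90 (SE 0.17, adjusted p = 2.12e-05), a 3.72-fold difference. IRF7 had 1 named probe.

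Among the antiviral effectors, 34 of 35 tested genes were higher in the interferon-high arrays, 6 of them past the threshold, with a median difference of 0.44 against 0.014 over all genes. IFIT1, which holds viral RNA that lacks the host's cap methylation, was at 0.38, 1.37 and 2.05 against -2.20, -1.02 and 0.08. Its ends were separate, and the difference of 2.36 (SE 0.33, adjusted p = 0.00188) was 5.15-fold. IFIT5, a relative that binds RNA with a triphosphate end, was at 0.15, 0.47 and 1.73 against -2.33, -1.09 and -0.56. That is a difference of 1.94 (SE 0.27, adjusted p = 0.00188), and its 2 probes, which share no 15 bases, gave 1.94 and 2.06. OAS2, an enzyme whose oligoadenylates activate RNase L, was at 1.75, 2.24 and 2.95 against 0.62, 1.18 and 1.42. All 6 of its probes gave differences between 1.21 and 1.28, and each passed the threshold when probes were tested singly. Some of these probes overlap, and they form 2 sets that share no 15 bases with each other. IFI6, a small membrane protein that limits cell death, was at 3.53, 4.23 and 5.05 against 2.49, 2.93 and 3.44, a difference of 1.38 (SE 0.20, adjusted p = 0.00243). IFIT1 and IFI6 each had 1 named probe.

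SAMD9L, an antiviral restriction factor, differed by 0.88 (SE 0.16, adjusted p = 0.0351) and XAF1, which promotes apoptosis, by 0.86 (SE 0.17, adjusted p = 0.0432). The ends of XAF1 were separate, while 6 of 8 interferon-high arrays lay above all interferon-low arrays for SAMD9L. When probes were tested singly, the 1 probe of XAF1 did not pass, and neither did the second probe of SAMD9L (0.89, adjusted p = 0.0664) or that of RIGI (1.18, adjusted p = 0.0541). Just short of the threshold, and outside the rule for named genes, lay IFI44L, a paralogue of IFI44, with 1.22 (SE 0.25, adjusted p = 0.0636). IFI27, OAS3 and OAS1 had differences of 1.103, 0.98 and 0.87 with adjusted p between 0.0752 and 0.095. OASL, an oligoadenylate synthetase relative named after its values were seen, depended on the probe. Its brighter probe, which represents the gene, was at 4.57, 4.79 and 5.03 against 4.38, 4.64 and 4.70 (difference 0.19, SE 0.08). Its dimmer probe differed by 1.29 (SE 0.22, adjusted p = 0.0158 over all probes), and both stood well above background on all 32 arrays.

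In the ISG15 conjugation machinery all 5 tested genes were higher, 1 of them past the threshold. This was HERC5, the ligase that attaches ISG15 to newly made proteins, at 1.37, 1.79 and 2.33 against -0.10, 0.29 and 0.67. The difference of 1.55 (SE 0.16, adjusted p = 9.8e-05) separated the ends. Its 3 tested probes, which form 2 sets that share no 15 bases with each other, gave 1.43 to 1.55. The other members with the smallest p were the related HERC6 with 0.66 (SE 0.18), the conjugating enzyme UBE2L6 with 0.55 (SE 0.16) and the activating enzyme UBA7 with 0.54 (SE 0.16), none past the threshold.

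Of the sensors of nucleic acid and their adaptors, 16 of 18 were higher and 1 passed, with a median of 0.14. RIGI, which detects viral RNA in the cytosol, was at 0.93, 1.54 and 2.34 against -0.01, 0.22 and 1.28, a difference of 1.16 (SE 0.22, adjusted p = 0.0351). A single interferon-low array reached into the range of the interferon-high ones. IFIH1 (MDA5, the sensor of long double-stranded RNA) differed by 1.04 (SE 0.21, adjusted p = 0.0636) and its 2 probes by 1.04 each. The third member of that family, DHX58, differed by 0.48 (SE 0.19), and ZBP1, a sensor of Z-form nucleic acid, by 0.38 (SE 0.18).

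Upstream of these genes no receptor or kinase passed the threshold. Of 11 listed interferon genes, 5 had a named probe (IFNA1, IFNB1, IFNE, IFNG and IFNK), and none stood well above background on more than 1 of the 16 end arrays. None met the filter in either weaning type, so none was tested. Of the 7 tested receptor chains and kinases 5 were higher and 0 passed, with a median difference of 0.055. IFNAR1 differed by -0.10 (95% interval -0.41 to 0.22), IFNAR2 by 0.05 (-0.21 to 0.30), JAK1 by -0.02 (-0.36 to 0.32) and TYK2 by 0.16 (-0.16 to 0.47). IFNGR2, a chain of the interferon gamma receptor, differed by 0.05, with wide ranges of 1.83 to 2.86 and 0.90 to 3.21.

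Of 10 interferon transcription factors all were higher and IRF7 alone passed, with a median of 0.15. IRF9, the DNA-binding member of the type I complex, was at 1.75, 2.05 and 2.44 against 0.92, 1.39 and 1.97, a difference of 0.68 (SE 0.15, adjusted p = 0.122). BATF2 differed by 1.56 (SE 0.42), but its probe stood well above background on 8 interferon-high and only 2 interferon-low arrays. STAT2 differed by 0.15 (SE 0.17) and IRF1 by 0.39 (SE 0.22), none past the threshold. The inhibitors of interferon signalling were higher in 7 of 13 cases, with a median of 0.021 and 0 past the threshold. TRAFD1, a brake on innate signalling that interferon induces, had the smallest p among them with 0.43 (SE 0.13), followed by CISH with 0.29, SOCS3 with 0.32 and PIAS3 with -0.15.

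Genes that respond to interferon gamma had a median difference of 0.69 over 11 tested members, of which 9 were higher and 0 passed the threshold. CXCL10, a chemokine that draws T cells, was at -3.57, -2.83 and -1.66 against -5.22, -4.14 and -3.34, a difference of 1.44 (SE 0.30, adjusted p = 0.0752). When probes were tested singly, 3 of its 5 probes, which overlap in sequence, passed, the largest at 2.01 (SE 0.29, adjusted p = 0.00385). These 3 stood well above background on 29, 23 and 16 of the 32 arrays, so their differences rest partly on values near background. GBP5, a guanylate-binding protein of inflammasome activation, differed by 0.98 (SE 0.21, adjusted p = 0.0877), its relative GBP6 by 0.87 (SE 0.22) and CD274 (PD-L1, an inhibitory ligand) by 0.80 (SE 0.19). IDO1, which degrades tryptophan, is outside the rule for named genes and differed by 0.69. CIITA, the class II regulator that interferon gamma induces, differed by -0.01. In class I presentation and the immunoproteasome 12 of 16 genes were higher with a median of 0.17 and 0 past the threshold. PSME2 differed by 0.33 (SE 0.13), the peptide transporters TAP1 and TAP2 by 0.46 (SE 0.20) and 0.27 (SE 0.12), PSMB10 by 0.23 (SE 0.10) and B2M by 0.12 (SE 0.09).

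Among induced cytokines and surface proteins 9 of 11 were higher, with a median of 0.33, and TNFSF10 (TRAIL, a death ligand) passed. Its levels of 0.54, 0.74 and 1.20 lay above all interferon-low levels of 0.11, 0.26 and 0.35, a difference of 0.57 (SE 0.10, adjusted p = 0.0316). Its 2 probes gave 0.44 and 0.57, and when probes were tested singly the first did not pass (adjusted p = 0.375). CCL8, a chemokine for monocytes, differed by 1.51 (SE 0.43), TNFSF13B (BAFF, a B cell survival factor) by 0.36 (SE 0.12) and the checkpoint receptor LAG3 by 0.33 (SE 0.15), none past the threshold.

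Outside the lists, SPATS2L, an RNA-binding protein of stress granules, was at 0.76, 1.32 and 1.75 against -0.43, 0.11 and 0.81. Its difference was 1.15 (SE 0.17, adjusted p = 0.00243), 7 of 8 interferon-high arrays lay above all interferon-low arrays, and its 5 probes, which overlap in sequence, gave 1.04 to 1.15. CCRL2, a surface receptor that holds chemerin, was at 3.21, 3.65 and 3.83 against 2.16, 2.69 and 3.56, a difference of 0.88 (SE 0.17, adjusted p = 0.0432), and its 1 probe did not pass when probes were tested singly. The next genes by p were CXCL17 with 1.84 (SE 0.39, adjusted p = 0.0752), SHISA5 with 0.41 (SE 0.10) and TMEM140 with 0.58 (SE 0.14), none past the threshold. No gene passed in the other direction. The 5 with the smallest p among the lower genes were OR5P98 (-0.55), MYO9A (-0.90), HEXDC (-0.31), LENG8 (-0.37) and C21H5orf51 (-0.27), with adjusted p from 0.441 to 0.87. Of the 8 interferon-high arrays, OR5P98 stood well above background on 1, MYO9A on 3 and HEXDC on 6, so these differences rest partly on values near background.

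**Figure D3:**
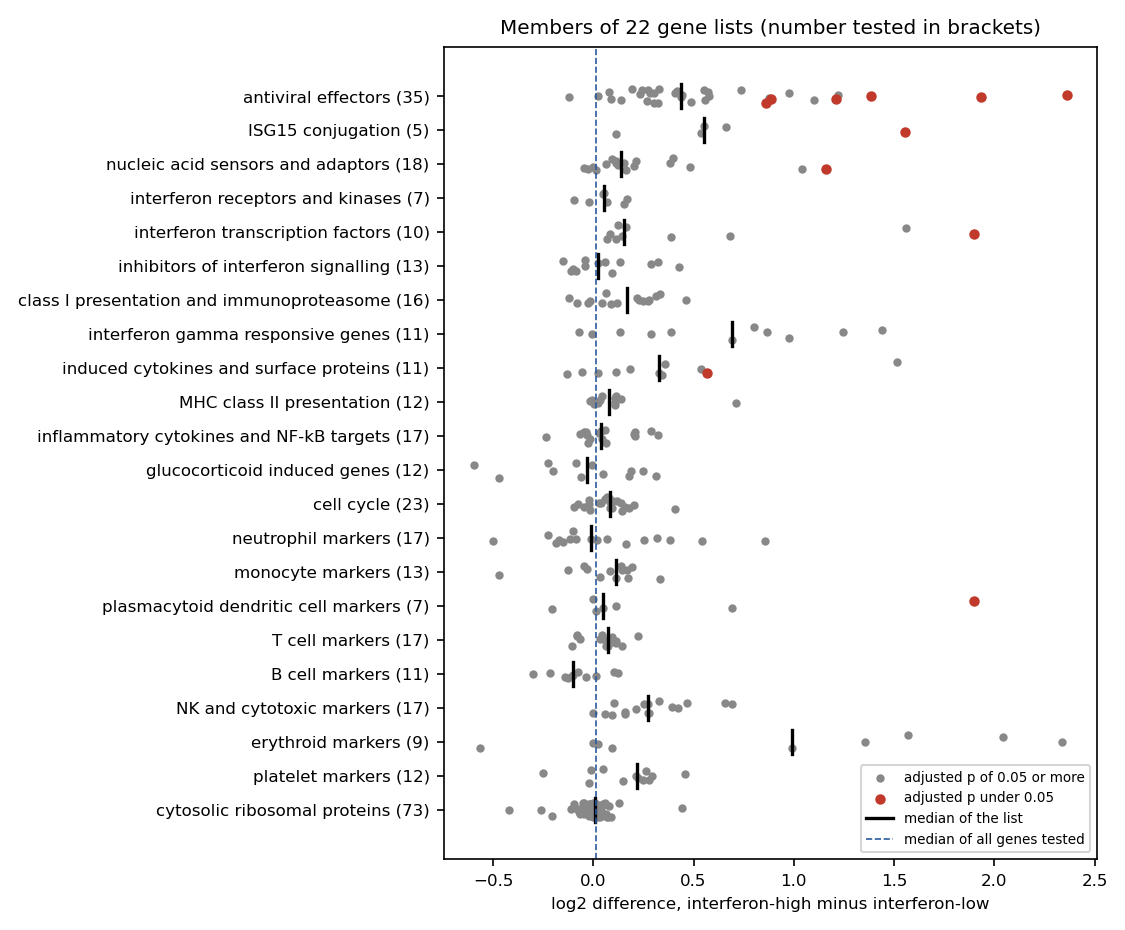
Log2 difference between interferon-high and interferon-low arrays (horizontal axis) for each tested member of 22 gene lists, with the list's median as a bar, genes past an adjusted p of 0.05 in red and the median of all genes, 0.014, as a dashed line. Antiviral effectors (median 0.44), interferon gamma responsive genes (0.69) and erythroid markers (0.99) lie to the right, while receptors and kinases (0.055) and ribosomal proteins (0.007) lie near the dashed line.

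Among red cell transcripts the globins had the largest differences, and 1 of them passed when the row was fitted. Of 19 erythroid markers 15 had a named probe and 9 were tested. Of these 7 were higher and 0 passed, with a median of 0.99. The mean level of the 9 ran from -0.13 to 1.79 in the interferon-high and from -0.64 to 0.88 in the interferon-low arrays. The beta globin HBB was at 6.03, 8.08 and 9.45 against 4.03, 5.66 and 7.12, a difference of 2.34 (SE 0.49, adjusted p = 0.0752). The alpha globin HBA2 differed by 2.05 (SE 0.44, adjusted p = 0.0782), and with row as a term by 2.54 (SE 0.45, adjusted p = 0.0330), past the threshold. With that term HBB differed by 2.64 (SE 0.56, adjusted p = 0.141) and 8 of the 9 markers were higher, with a median of 1.20. For the haem enzyme ALAS2, which was picked out with its values known, the difference was 1.35 (SE 0.40), and for BPGM and FECH it was 0.02 and -0.00. SELENBP1, also picked out with its values known, lay the other way at -0.57 (SE 0.23).

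Over the 16 arrays between the ends, 2 of the 9 erythroid markers had a slope on the score above 0. There HBB had a slope of -1.36 (SE 1.27) per unit of score. With the mean erythroid score as a term, 11 genes were past the threshold and 9 of the 12 were among them. IRF7 then differed by 1.80 (adjusted p = 0.000435), HERC5 by 1.66 and IFIT1 by 2.99. RIGI, CCRL2 and XAF1 lay at adjusted p of 0.0542 to 0.0776. With neutrophil, T cell, erythroid and platelet scores together as covariates 22 genes passed, with all 12 among them.

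Of the markers of other cell types, IRF7 alone passed the threshold. All 17 tested markers of NK and cytotoxic cells were higher in the interferon-high arrays, with a median of 0.27 and 0 past the threshold. Their mean level ran from 0.46 to 1.08 against 0.02 to 0.75. CST7, an inhibitor of cytotoxic granule proteases, differed by 0.47 (SE 0.14) and GZMB, a granule protease also made by plasmacytoid dendritic cells, by 0.69 (SE 0.23). Of 7 tested plasmacytoid dendritic cell markers, the cells that release most type I interferon, 6 were higher with a median of 0.046. IRF7, which interferon induces in many cells, was the 1 that passed, and no probe was named for the defining marker CLEC4C. Neutrophil markers were higher in 8 of 17 (median -0.013), monocyte markers in 9 of 13 (0.11), T cell markers in 13 of 17 (0.072), B cell markers in 3 of 11 (-0.099) and platelet markers in 9 of 12 (0.22), with 0 past the threshold in each. With row as a term the neutrophil median turned to 0.18, with 14 of 17 higher, and 12 of 13 monocyte markers (0.22) and 11 of 12 platelet markers (0.38) were higher. The part of cell composition in the differences was not tested beyond the fits with these scores.

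The gene groups outside the interferon lists and the cell markers showed no member past the threshold. Among them, class II presentation shares the regulator CIITA with the interferon gamma responsive genes. Class II presentation was higher in 10 of 12 genes (median 0.077, with DQA at 0.71 ± 0.47 SE), inflammatory cytokines and NF-kB targets in 10 of 17 (0.037), and cell cycle genes in 17 of 23 (0.082). Glucocorticoid induced genes were higher in 5 of 12 (-0.033), with IL1R2 at -0.60 (SE 0.36) and ANXA1 at 0.31 (SE 0.21). Cytosolic ribosomal proteins were higher in 39 of 73 (0.007) and respiratory chain subunits in 57 of 69 (0.066). Over all genes 54.7% were higher. With row as a term 63 of 73 ribosomal proteins (median 0.085) and 63 of 69 respiratory chain subunits (0.14) were higher, against 5741 of 9401 genes (0.051).

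The differences of the 12 genes had the same direction in every row and slide. The genes were chosen as higher over these same arrays, so the shared direction is not separate evidence. Within row 1, with 2 interferon-high against 6 interferon-low arrays, all 12 were higher with a median of 1.08, and within row 2, with 6 against 2, all 12 were higher with a median of 1.41. Within slides 1 to 4 all 12 were higher, with medians of 1.67, 0.61, 1.24 and 1.44, though slides 2 and 3 held 1 interferon-low array, slide 1 held 1 interferon-high array and slide 4 held 1 of each. IRF7 differed by 1.84 and 1.94 within the rows and by 2.77, 1.35, 1.75 and 2.17 within the slides. SPATS2L ranged from 0.26 on slide 2 to 1.68 on slide 1. HBB differed by 3.43 and 1.86 within the rows, and by 2.47, 3.67, 0.27 and 2.24 within the slides.

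The number past the threshold depended on how position was treated. With row as a term 9 genes passed, 7 of the 12 among them: IRF7, HERC5, IFIT1, IFIT5, IFI6, OAS2 and SPATS2L. The other two were the globin HBA2 (2.54, adjusted p = 0.0330) and IFI27 (1.38, adjusted p = 0.0288). With slide as a block 6 of the 12 passed (IRF7, HERC5, IFIT1, IFI6, OAS2 and SPATS2L), and with slide and row together IRF7 alone did (2.15, adjusted p = 0.0074). Without slide 1 the count was 1, without slide 3 it was 3, and without slide 2 or slide 4 it was 7. Leaving out single arrays gave 7 to 18 genes. The count was 7 without progressive 2, progressive 4, brutal 4, progressive 7 or progressive 14. IRF7, HERC5, IFIT1, IFIT5, IFI6, OAS2 and SPATS2L passed in all 16 of these fits.

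**Figure D4:**
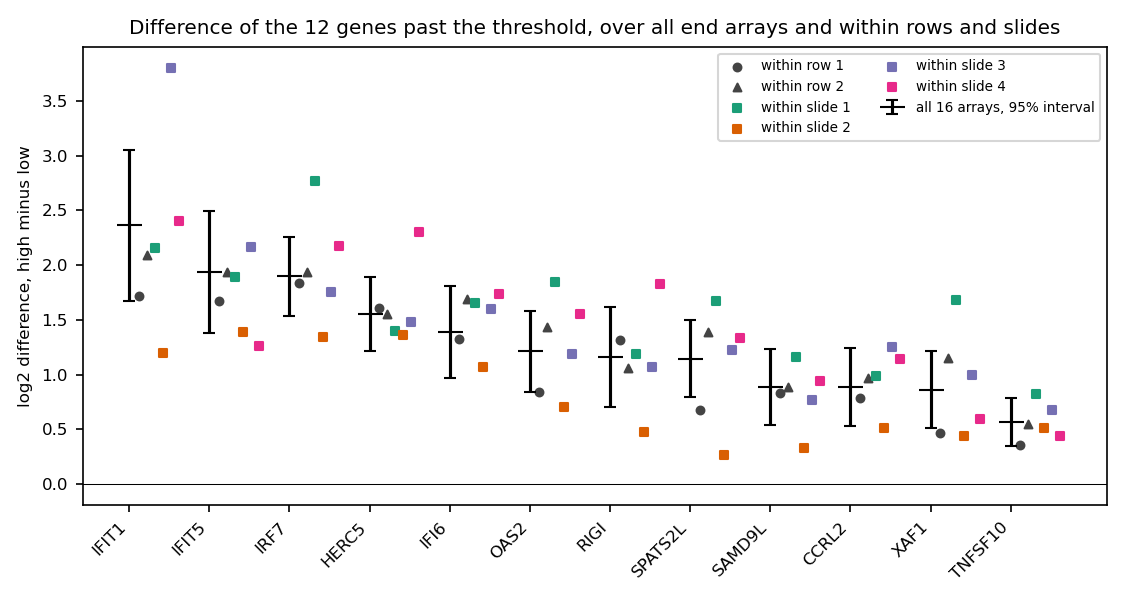
Log2 difference, interferon-high minus interferon-low, of the 12 genes past the threshold over all 16 end arrays (bar with 95% interval from limma) and within each row and slide (symbols, no error since some hold 1 array of an end). Every symbol lies above 0, from 0.26 for SPATS2L on slide 2 to 3.80 for IFIT1 on slide 3. The genes were chosen as higher on these same arrays.

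Used as a continuous measure over all 32 arrays, the score had 36 rising genes past the threshold and 0 falling (0.383% of the genes tested), with all 12 among them. This fit includes the end arrays and is not separate evidence. Of the 36, 27 were in the interferon lists, among them IFI44L, OAS1, OAS3, IFIH1, IRF9, CXCL10, GBP5, CD274 and IDO1. The steepest outside the score were IFIT1 with 1.35 (SE 0.16), CXCL17 with 1.11 (SE 0.19), IFIT5 with 1.06 (SE 0.17) and IRF7 with 1.002 (SE 0.13) log2 units per unit of score. The 9 outside the lists were SPATS2L, TRANK1, CXCL17, ZNFX1, CCRL2, SHISA5, HSH2D, C1QA and JAM2. Over the 16 arrays between the ends, which the comparison did not use, 0 genes passed in limma, with 227 at an unadjusted p under 0.05. The slopes of all 12 genes were above 0 there, against 44.6% of all genes. The slope of HERC5 was 1.19 (SE 0.30), of IFIT1 1.51 (SE 0.53) and of IRF7 0.81 (SE 0.48).

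The slope of each gene on the score was also tested for a difference between the weaning types. IRF7 rose by 1.17 per unit of score in the brutal and 0.92 in the progressive group, HERC5 by 0.96 and 0.90, and IFIT1 by 1.36 and 1.34. IFI6 had 1.04 and 0.63. No gene's slope differed between the types past an adjusted p of 0.05 in the interaction test of limma, the lowest adjusted p over all genes being 0.9996, with 273 genes at an unadjusted p under 0.05.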

How the data were processed

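Per spot, the deposited scanner files give an intensity (Agilent Feature Extraction 10.10.1.1 per the submitters' processing notes), with background subtracted and spatial trends removed per the file headers. The deposited series table holds log2 values of the same arrays, with no stated normalisation, and it served as an alternative. Of 62976 spots 1319 were controls, 2483 outlier spots over all arrays were left out, 851 of them on progressive 16, and 0 were saturated. The processed signal was divided by the array's 75th percentile over non-control spots, turned to log2 and averaged per probe. Of 43987 probes, 26379 were tested, those well above background on 8 or more of the 16 arrays from either weaning type. Names came from the files and from a RefSeq gene table (29553 probes), and the brightest tested probe stood for its gene, which left 9409 genes including the 5 score genes. Of these, 3 genes are not reported here and are left out of every list, count and plot, while p-values stay adjusted over all 9409. For 1004 values with every spot of a probe an outlier on an array, the mean of the outlier spots was used.

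Interferon-high and interferon-low arrays were compared with limma 3.58.1 under R 4.3.3 (functions lmFit and eBayes, the end as the only term, two-sided, Benjamini-Hochberg adjustment over all genes, threshold 0.05), and errors are limma's standard errors unless marked SD. Permutations ran in scipy 1.17.1 and numpy 2.4.6 (Python 3.11.15), tables in pandas 2.3.3 and plots in matplotlib 3.10.9. The scripts were tested on simulated data. The genes of the score, the gene lists and the comparison were chosen with earlier results of these data known. Named genes were the score genes, up to 10 per direction outside the lists past the threshold (filled to 5 by p), up to 6 called or 4 by p of each interferon list, 2 by p of each other list, and a fixed set of pathway genes. Other genes stand in counts of 12 or 36 or were named with their values known, and not all of these are marked in the text. Alternatives were other scalings, normexp, the series table, filters, probe means, covariates, slide as a block, slides and arrays left out, and slopes on the score. Row terms, the erythroid term, single arrays left out and the score without RSAD2 were added after seeing the data. Promoters were not analysed here, since no promoter sequence was at hand, and no coordinates are given because the files annotate an older horse assembly.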

Additional observations from a re-analysis of the deposited data

Results flagged for a closer look

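Among probes without a gene name, which the comparison by gene did not use, 5 were higher in the interferon-high arrays past an adjusted p of 0.05 when all 26379 probes were tested singly with limma. The largest difference was 1.89 (SE 0.23, adjusted p = 0.00168), on a probe that the file describes as like IFIT5. A pair of probes for 1 transcript record gave 1.05 (SE 0.16) and 1.101 (SE 0.16), and the other two gave 0.91 (SE 0.16) and 0.88 (SE 0.16). At this level 35 probes were higher and 0 lower. Outliers were sought in 44 sets of values, which covered the score genes, the 12 called genes and the array scores at each end. No single array passed Dixon's limit, a gap to the next array of more than 0.526 of the range of its end. Smaller gaps occurred. For SPATS2L, brutal 5 lay at 0.81 and the next interferon-low array, progressive 1, at 0.21.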

How the results depend on the processing

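No pairing was used, since each array stands for 1 mare. The labels give no replicate numbers, and those used here only follow the order of the records. The count of 12 genes became 6 with slide as a block, 1 with slide and row as terms, 22 with 4 composition scores as covariates, 19 with the filter for probes well above background on all arrays and 29 with ends drawn without RSAD2. As a slope it became 36 over 32 arrays, 27 with row as a term, 19 with slide and row as terms, 36 without progressive 16 and 0 over the 16 middle arrays, which are fewer and span a narrower range of the score. It was 7 without the array with the highest score, 1, 7, 3 and 7 without slides 1 to 4, and between 7 and 18 without single arrays. The causes of these changes were not tested, and the fits without slides or single arrays also hold fewer arrays. Under the other alternatives it lay between 8 and 16. No gene was called lower in any of them. All 12 genes were higher in all 25 alternatives, but most of these reuse the end arrays on which the genes were chosen. The difference in score between weaning types was -0.0540 without IFI44 and -0.0117 without the array with the highest score. Of genes not past the threshold, 105 of 3144 values in 40 genes changed sign, 31 of them over the middle arrays and 0 past the threshold. The number of arrays limits the precision, and BATF2, OR5P98, MYO9A, some CXCL10 probes and the interferon genes lie near background.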
